A study of Rattus norvegicus with 2 samples.

Results

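The genes examined here encode the enzymes, receptors and kinases that make, sense and relay cyclic GMP (cGMP) in answer to nitric oxide (NO) and the natriuretic peptides. They were chosen by symbol, with earlier results of these data known. The rule names 9 genes, of which 7 have a row among the 25399 genes listed for each library. These are the nitric oxide synthases Nos1, Nos2 and Nos3, the natriuretic peptide receptors Npr1, Npr2 and Npr3, and the cGMP-dependent kinase Prkg2. The other 2 genes, Nos1ap and Prkg1, are not analysed here. The study dissociated stellate ganglia, the sympathetic ganglia whose neurons supply the heart, from male Wistar rats, which are normotensive, and from male prehypertensive SHRs (spontaneously hypertensive rats), and captured cells in droplets for scRNAseq. The rats of both strains were 5 to 6 weeks old, no treatment is given for either, and the number of animals behind a library is not given in the sources used here. There is 1 library per strain, so a difference between the libraries has no replicate check and cannot be told apart from a difference between the preparations. The values are means over the cells that the authors placed in the sympathetic neuron cluster. The paper describes 2 sympathetic neuron populations, which differ mainly in that 1 also expresses Npy. Whether their mix differed between the libraries was not tested.

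Nitric oxide synthases make NO from arginine with tetrahydrobiopterin as a cofactor, and NO switches on soluble guanylyl cyclase, a dimer of an alpha and a beta subunit that turns GTP into cGMP. Natriuretic peptides reach the same messenger at the membrane. Atrial and brain natriuretic peptides bind Npr1, and C-type natriuretic peptide binds Npr2, both of which carry a guanylyl cyclase inside the cell, whereas Npr3 has no cyclase and removes the peptides. The cGMP formed acts on cGMP-dependent protein kinases, on cGMP-gated channels and on phosphodiesterases, which also end the signal. In cardiac sympathetic neurons this pathway is known as a brake on calcium entry and on noradrenaline release.

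Only 2 of the 7 genes, Prkg2 and Npr2, had an average over both libraries of at least 0.1 counts per 10000, the minimum set here for a comparison of libraries. Both were lower in SHR. The mean of Prkg2 was 1.02 per 10000 in Wistar against 0.176 in SHR, and that of Npr2 was 0.529 against 0.289. The other 5 genes were close to or at 0 in both libraries, and Nos1, the neuronal synthase, was among them.

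**Figure D1:**
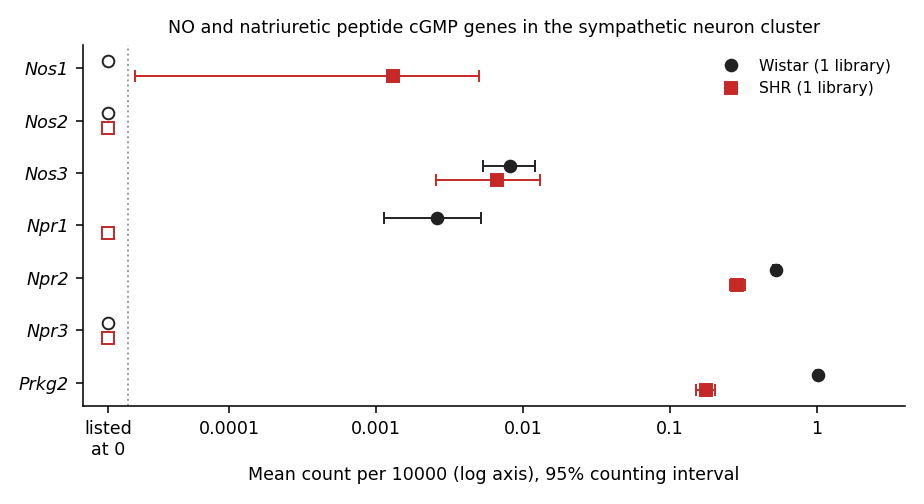
Mean count per 10000 (log axis) of the 7 genes in the sympathetic neuron cluster, with Wistar as black circles and SHR as red squares, with 95% counting intervals. Open symbols left of the dotted line mark genes listed at 0. Prkg2 and Npr2 sit above 0.1 per 10000 in both libraries, with the SHR point left of the Wistar point, and the other genes sit below 0.01.

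The depth behind these means can be read in part from the deposited values themselves. Many low means recurred exactly in several genes, as they must when each of those genes has 1 count in the same neuron. After multiples and sums were set aside, 191 such values were found for Wistar and 105 for SHR. A single count added between 0.000140 and 0.00776 per 10000 in Wistar and between 0.000391 and 0.0186 in SHR. On average over counts it added 0.000328 in Wistar and 0.000901 in SHR, so that a mean of the same size rests on fewer counts in SHR. Of these values, 27 of 191 in Wistar and 6 of 105 in SHR were above 5 times their library's median, which marks cells of far lower depth than the rest. Counts quoted below as estimated are the mean divided by this average. The totals estimated this way, 3.05e+07 counts in Wistar and 1.11e+07 in SHR, come to 1.60e+05 and 1.06e+05 counts for each value found, which is high for a cell captured in a droplet. Neurons whose value did not recur would lower that figure, and as their number is unknown the estimated counts may be too high and the intervals too narrow. The estimates also assume that a gene takes the same share of every neuron's counts, and they overstate the counts of a gene held mostly by shallow cells. Intervals cover counting error only and not the spread between neurons, animals or libraries.

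**Figure D2:**
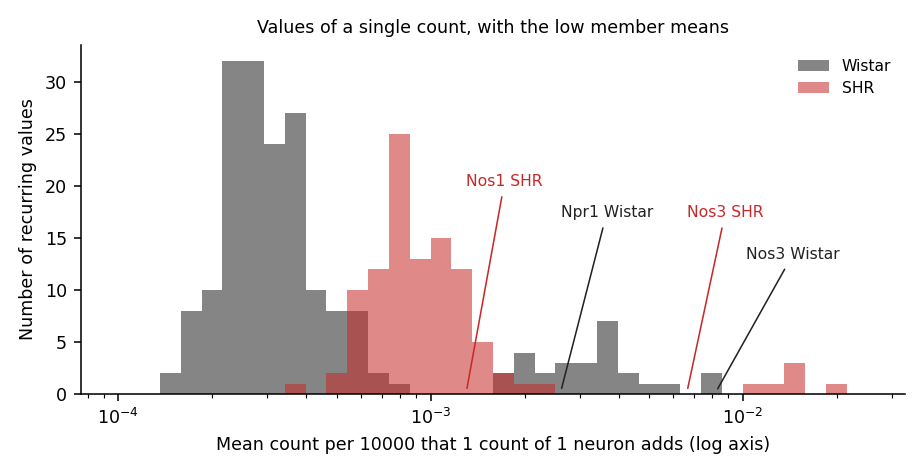
Number of recurring values (vertical axis) by the mean per 10000 that 1 count of 1 neuron adds (horizontal log axis), in grey for Wistar and red for SHR, with lines to the 4 low member means above 0. The SHR values lie further right, with a median of 0.000868 against 0.000313, and the Nos1 mean in SHR falls on a value of 1 count.

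The cells were checked against markers of their labelled type. All 16 sympathetic neuron markers on the list, among them Th, Dbh and Slc6a2, passed the minimum, and their summed mean was 187.1 per 10000 for Wistar and 199.9 for SHR. Most of that sum comes from Prph and Stmn2, which encode a neuronal intermediate filament and a microtubule regulator. Gene by gene, 11 of the 16 were lower in SHR, 5 of them by at least 1.5-fold, and the median log2 ratio was -0.26. These shares, 68.75% and 31.25%, were near those of all genes past the minimum, 65.6% and 26.5%, whose median was -0.21. The 5 markers lower by at least 1.5-fold were Dbh, Ddc and Maoa, which make and break down catecholamines, the granule protein gene Chga, and Npy. Their log2 ratios lay between -1.04 (Ddc) and -0.68 (Maoa). Mitochondrial genes made up 16.9% and 18.0% of the mean profile. Markers of other cell types were present at lower sums, and each list's sum was lower in SHR. Of 12 satellite glia and Schwann cell markers, all with a row, 8 passed the minimum and all 8 were lower in SHR. By at least 1.5-fold 7 of the 8 (87.5%) were lower, beside 26.5% of all genes past the minimum. Their median log2 ratio was -1.65. The summed mean of the list was 21.0 per 10000 for Wistar against 12.1 for SHR. Its highest means were those of Pmp22 (11.3 against 8.58) and Apoe (6.24 against 2.23). S100b, a glial calcium-binding protein gene, went from 0.424 to 0.0744 and Sox10, a glial transcription factor gene, from 0.0914 to 0.0169, whereas Ncmap was listed at 0 in both. The summed mean was 3.67 and 1.85 for 8 fibroblast markers, and 1.32 and 0.432 for 10 immune markers, of which Cd163 was at 0 in both. The 9 endothelial markers with a row, none of them at 0, had a summed mean of 0.274 and 0.120. Tek and Emcn among them were higher in SHR (0.0202 against 0.0512 and 0.00843 against 0.0163). For 9 smooth muscle and pericyte markers it was 0.136 and 0.0761, with Rgs5 at 0 in SHR. Acta2 and Tagln on that list were higher in SHR (0.00983 against 0.0106 and 0.00487 against 0.00547). Myh11, its highest mean, went from 0.0880 to 0.0523. Of the 3 erythrocyte markers with a row, Alas2 was at 0 in both libraries, and the summed mean was 0.0669 and 0.0499. Hba-a2 was higher in SHR (0.0195 against 0.0262) and Hbb lower (0.0474 against 0.0237).

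Prkg2, which encodes the type II cGMP-dependent protein kinase, a serine/threonine kinase that is anchored to membranes, showed the largest difference of the 7 genes. Its mean of 1.02 per 10000 in Wistar (95% counting interval 0.986 to 1.06, 3119 estimated counts) ranked 1699 among all genes of that library. The SHR mean of 0.176 (95% counting interval 0.152 to 0.202, 195 estimated counts) ranked 5703. These intervals do not overlap. The Wistar mean was 5.81 times the SHR mean, a log2 ratio of SHR over Wistar of -2.54 (95% counting interval -2.76 to -2.33), and the SHR mean was lower by 82.8%. Over the 7621 genes past the minimum the median log2 ratio was -0.21, with quartiles of -0.61 and 0.15, so Prkg2 was lower by 2.33 on the log2 scale than the typical gene (log2 ratio relative to the median -2.33). Counted from the lowest ratio, it stood in place 24 of the 7621 genes. Whether the glial, fibroblast and immune transcripts that were lower in SHR take part in the Prkg2 difference was not tested, since the values are means over cells.

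Npr2 encodes the membrane guanylyl cyclase that serves as the receptor of C-type natriuretic peptide. Its mean was 0.529 per 10000 in Wistar (95% counting interval 0.504 to 0.556, 1616 estimated counts) and 0.289 in SHR (95% counting interval 0.258 to 0.322, 321 estimated counts). The intervals do not overlap here either. How many of all genes have separate intervals was not counted. Those of Gucy1b1, whose ratio was close to the median of all genes, were separate too (1.54 to 1.63 in Wistar, 1.23 to 1.36 in SHR). For Npr2 the Wistar mean was 1.83 times the SHR mean, with a log2 ratio of -0.87 (95% counting interval -1.05 to -0.70). Relative to the median of all genes past the minimum it was -0.66. Npr2 ranked 3274 in Wistar and 4368 in SHR, and in place 1109 from the lowest ratio it was much closer to the bulk of genes than Prkg2. The order of these genes differed between the libraries. In Wistar the mean of Prkg2 was above that of Npr2, and in SHR it was below. These are counts of 3′ ends, 1 per molecule, and were not divided by transcript length.

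Differences in this direction were common. Of the 7621 genes past the minimum, 65.6% were lower in SHR, 26.5% were lower by at least 1.5-fold and 5.22% were higher by at least 1.5-fold. Both Prkg2 and Npr2 are among those lower by at least 1.5-fold, and with only 2 genes past the minimum this count says nothing about the pathway as a whole. Long genes were lower in SHR more often. In 10 groups of equal size by the span of the gene in the GRCr8 assembly, the median log2 ratio went from 0.30 in the shortest genes to -0.55 in the longest. Prkg2 lies in group 9 from the shortest, with a median of -0.46, and Npr2 in group 5, with a median of -0.22. Relative to genes of like span their log2 ratios were -2.08 and -0.66. The part of gene length in either difference was not tested further.

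**Figure D3:**
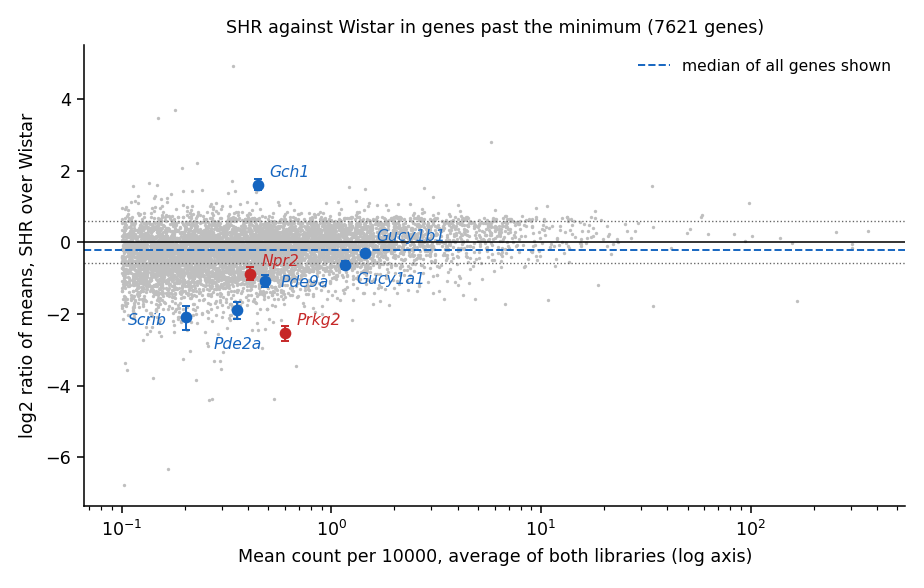
Log2 ratio of means, SHR over Wistar (vertical axis), by the average mean per 10000 of both libraries (horizontal log axis) for the 7621 genes past the minimum in grey, with Prkg2 and Npr2 in red and 6 pathway genes in blue. Bars are 95% counting intervals, dotted lines mark 1.5-fold and the dashed line marks the median of -0.21. Prkg2 lies at -2.54, in place 24 from the lowest ratio, and Npr2 at -0.87 lies within the lower part of the cloud.

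The nitric oxide synthases were at the edge of detection. Nos1, the neuronal synthase, was listed at 0 in Wistar, and its SHR mean was 0.00130 per 10000. This SHR mean is shared by 10 genes and equals the value of 1 count, so Nos1 was seen once over all SHR neurons. The 95% counting interval of a count of 0 in Wistar reaches up to 0.00121 per 10000, and that of 1 count in SHR from 2.28e-05 to 0.00502. No difference between the libraries was detectable for Nos1 at this depth. Nos3, the endothelial synthase, had a mean of 0.00820 per 10000 in Wistar (95% counting interval 0.00530 to 0.0121, 25 estimated counts, and at most 58 if all came from the deepest neuron found) and 0.00662 in SHR (95% counting interval 0.00253 to 0.0130, 7 estimated counts and at most 16). The intervals overlap, and the interval of the log2 ratio, -1.83 to 0.87 around -0.31, covers a lower and a higher level alike. In the GRCr8 annotation the span of Nos3 overlaps that of Atg9b. The strands were not compared, and whether the overlap affects the Nos3 counts was not tested. Endothelial markers were present in both libraries at the sums given above, and their part in the Nos3 counts was not tested. Nos2, the inducible synthase, was listed at 0 in both libraries. A listed 0 cannot be read as absence, because Hprt1, a purine salvage gene that every cell uses, and Hsp90aa1, a chaperone gene, were also listed at 0 in both.

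Among the natriuretic peptide receptors, only Npr2 was well detected. Npr1, the receptor of atrial and brain natriuretic peptides, had a mean of 0.00261 per 10000 in Wistar (95% counting interval 0.00113 to 0.00516, 8 estimated counts and at most 18) and was listed at 0 in SHR. The 95% counting interval of a count of 0 in SHR reaches up to 0.00332 per 10000. This is above the Wistar mean, so a level like that of Wistar could have gone unseen in SHR. Npr3, the clearance receptor, was listed at 0 in both libraries. From means over cells alone, fewer cells with a transcript and less transcript per cell cannot be told apart, which holds for Prkg2 and Npr2 as well.

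The rest of the pathway was followed in 68 further genes, of which 67 have a row and 32 passed the minimum. Of these 32 genes, 18 (56.2%) were lower and 14 higher in SHR, with a median log2 ratio of -0.13 against -0.21 for all genes past the minimum. With the median of genes of like span set to 0, 12 were lower and 20 higher. By at least 1.5-fold, 7 of the 32 genes (21.9%) were lower and 3 (9.38%) were higher, against 26.5% and 5.22% of all genes. With the median of all genes set to 0 these counts became 4 lower and 8 higher. The pathway genes lay on both sides, and they were described by counts and not tested as a set.

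The soluble guanylyl cyclase, the NO receptor, was well detected through a pair of subunits. Gucy1b1, the beta subunit, had a Wistar mean of 1.59 and an SHR mean of 1.29 per 10000, a log2 ratio of -0.29 (95% counting interval -0.38 to -0.21). This is close to the median of all genes, and relative to genes of like span it turned to 0.12. Gucy1a1, its alpha partner, went from 1.41 to 0.905 per 10000, a log2 ratio of -0.63 (95% counting interval -0.74 to -0.54). This was -0.42 relative to the median of all genes and -0.22 relative to genes of like span. Both genes had a higher mean than Npr2 in both libraries. Gucy1a2, another alpha subunit, stayed at 0.0291 in Wistar and 0.0282 in SHR, under the minimum. Gucy1b2, a further beta subunit singled out after its values were seen, had a mean of 0.0291 per 10000 in Wistar (89 estimated counts) and was listed at 0 in SHR. Of the 5 other membrane guanylyl cyclases none passed the minimum. In Wistar the mean per 10000 was 0.00258 for Gucy2e and 0.000602 for Gucy2g. Both were listed at 0 in SHR, and the other 3 were listed at 0 in both libraries.

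Transcripts of the ligands were rare in these neurons. Nppc, which encodes C-type natriuretic peptide, the ligand of Npr2, was singled out after its values were seen. It had a mean of 0.0648 per 10000 in Wistar (198 estimated counts) and 0.129 in SHR (144 estimated counts), just under the minimum on average, and its log2 ratio was 1.00 (95% counting interval 0.68 to 1.32). Its direction was thus opposite to that of Npr2. Nppa had 6 estimated counts in Wistar and 1 count in SHR, and Nppb 5 estimated counts in Wistar and none in SHR. Among the processing enzymes, Furin, a convertase of peptide precursors, went from 0.939 to 0.710 per 10000 and Ide, the insulin-degrading enzyme, from 0.431 to 0.291, neither by as much as 1.5-fold. Corin, the convertase of the atrial peptide, was listed at 0 in both libraries.

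Of 11 phosphodiesterase genes on the cGMP list, 5 passed the minimum, of which 3 were lower by at least 1.5-fold and 1 was higher, beside 26.5% and 5.22% of all genes. Pde2a, a phosphodiesterase that cGMP itself stimulates, had a Wistar mean of 0.558 and an SHR mean of 0.149 per 10000, a log2 ratio of -1.90 (95% counting interval -2.14 to -1.67), in place 96 of 7621 from the lowest ratio. Its log2 ratio was -1.45 relative to genes of like span. Pde9a, which is selective for cGMP, went from 0.657 to 0.310 per 10000, a log2 ratio of -1.09 (95% counting interval -1.25 to -0.92), or -0.63 relative to genes of like span. Pde10a, which hydrolyses both cyclic nucleotides, went from 0.182 to 0.117, a log2 ratio of -0.63 that shrank to -0.083 relative to genes of like span. Pde6d was higher in SHR, at 1.03 against 0.637 per 10000, but encodes a prenyl-binding protein and no catalytic subunit. Pde5a, the enzyme blocked by sildenafil, was near 0, with 4 estimated counts in Wistar and 3 in SHR.

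Among the genes that supply arginine and tetrahydrobiopterin, 8 of 12 passed the minimum. Of these 8, 3 (37.5%) were lower and 5 higher in SHR, beside 65.6% of all genes lower. Gch1, the GTP cyclohydrolase that limits the rate of tetrahydrobiopterin synthesis, had a mean of 0.220 per 10000 in Wistar (673 estimated counts) and 0.669 in SHR (743 estimated counts). The SHR mean was 3.04 times the Wistar mean, a log2 ratio of 1.60 (95% counting interval 1.45 to 1.75), and Gch1 stood in place 9 of 7621 from the highest ratio. Tetrahydrobiopterin is also the cofactor of Th, the tyrosine hydroxylase of noradrenaline synthesis, whose own log2 ratio was -0.010. The genes of highest level on this list differed little. Ddah1, which breaks down a natural inhibitor of the synthases, went from 3.09 to 2.63 per 10000, lower in SHR but higher by 0.32 relative to genes of like span. Qdpr, which recycles the cofactor, was at 2.29 per 10000 in both libraries.

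Of 7 partners of Nos1 and Nos1ap, 6 passed the minimum, 3 (50%) lower and 3 higher in SHR, beside 65.6% of all genes lower. Scrib, a polarity scaffold that binds Nos1ap, had a Wistar mean of 0.328 and an SHR mean of 0.0766 per 10000, a log2 ratio of -2.10 (95% counting interval -2.44 to -1.78). Dynll1, the dynein light chain first described as an inhibitor of the neuronal synthase, was higher at 15.5 against 9.70 per 10000, a log2 ratio of 0.67 (95% counting interval 0.65 to 0.70). Rasd1, a small GTPase that Nos1ap couples to the synthase, was at 1.73 in Wistar and 2.20 in SHR. The 4 regulators of Nos3 and Nos2 past the minimum were all higher in SHR, by less than 1.5-fold, where 65.6% of all genes were lower. Among them Hsp90ab1, a chaperone gene, went from 29.3 to 39.3 per 10000.

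A further list held targets of the cGMP-dependent kinases in general, not of Prkg2 in particular, and the cGMP-gated channels. Of its 13 genes with a row, 5 passed the minimum, and 4 of them were lower in SHR, beside 65.6% of all genes. Itpr1, an inositol trisphosphate receptor, went from 0.156 to 0.0864 per 10000, a log2 ratio of -0.85 (95% counting interval -1.18 to -0.53), and Ppp1r12a, the targeting subunit of myosin phosphatase, from 0.831 to 0.552, a log2 ratio of -0.59 (95% counting interval -0.72 to -0.46). Relative to genes of like span these ratios were -0.30 and -0.13. Kcnma1, the large-conductance calcium-activated potassium channel, went from 0.598 to 0.434, a log2 ratio of -0.46 that turned to 0.090 relative to genes of like span. Vasp, a regulator of actin filaments and a standard substrate of the cGMP kinases, went from 0.858 to 0.668 per 10000, a log2 ratio of -0.36. Rhoa, a small GTPase, was higher in SHR, at 3.03 against 2.61. Of the cGMP-gated channel genes with a row, Cnga1, Cnga3 and Cnga4 were listed at 0 in both libraries. Cngb1 had a mean of 0.0314 per 10000 in Wistar (96 estimated counts) against 0.00610 in SHR (7 estimated counts), a log2 ratio of -2.37 (95% counting interval -3.67 to -1.22), and Cngb3 had 1 estimated count in Wistar and was at 0 in SHR.

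**Figure D4:**
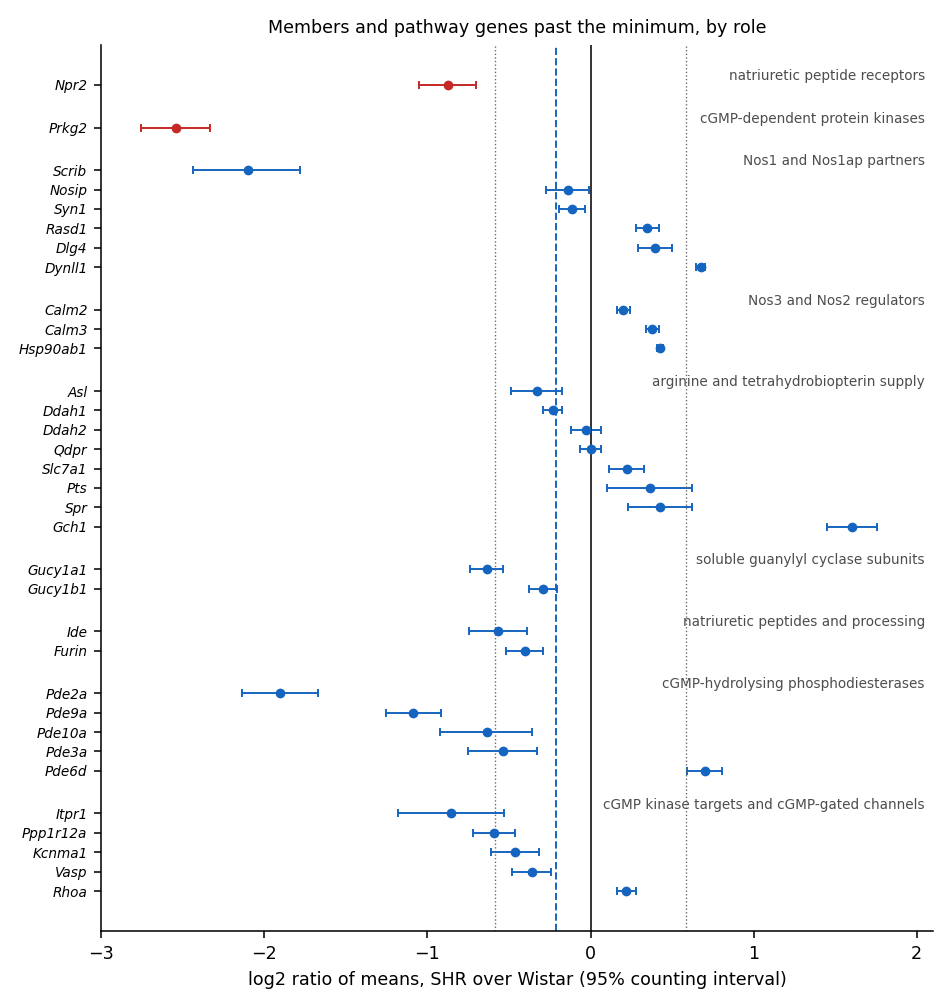
Log2 ratio of means, SHR over Wistar (horizontal axis), of the 2 members (red) and 31 of the 32 pathway genes (blue) past the minimum, grouped by role, with 95% counting intervals. The solid line marks no difference, the dashed line the median of all genes (-0.21) and the dotted lines 1.5-fold. Prkg2 has the lowest ratio shown and Gch1 the highest.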

How the data were processed

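Cells of 1 Wistar and 1 SHR library were captured with 10x Genomics 3′ chemistry (version 3 of the kit) and sequenced on a HiSeq instrument. The submitters' processing notes name Cell Ranger 3.0.2, Seurat 3 and the Rnor_6.0 build. The authors clustered the cells and deposited 1 value per gene and library for the sympathetic neurons, on a natural log scale to which 1 had been added (the mean over cells of counts scaled to 10000 per cell). The filters on cells and the handling of doublets are not given in the sources used here. The values were converted back with the exponential, and 4 lines whose names repeat were kept in the totals but not compared. The authors' own comparison of the strains, which holds fold changes, p-values and shares of cells, was not used.

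Ratios of means were taken with no pseudocount, and genes were called at 1.5-fold among those averaging at least 0.1 per 10000. No test was made, since each strain has 1 library. Means equal within 2e-09 in at least 3 genes, and neither multiples nor sums of smaller ones, were taken as values of 1 count, and their harmonic mean as the average value of a count. In simulated libraries over 25399 genes the counts estimated this way were 1.16 times the true ones for a Wistar-like library of 190 cells, and 1.05 times for an SHR-like library of 110 cells (medians), and 1.54 times for a Wistar-like library of 1200 shallower cells. In the simulated comparison of SHR against Wistar, all 200 of 200 genes changed by at least 2-fold were recovered at the 1.5-fold call. These genes were drawn from levels above the average mean of Npr2, and every simulated cell of a library had the same profile. Recovery was thus near certain in advance. It checks the arithmetic only, and not low genes or the spread between neurons, animals or libraries. Intervals are exact Poisson intervals for a mean and exact binomial (Clopper-Pearson) intervals for a ratio, from the rounded estimated counts. Gene spans came from RefSeq's GRCr8 annotation, used for order and overlap only, and 95.7% of the genes past the minimum have one.

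The 9 genes and the lists were chosen with earlier results of these data known. Genes named are those 9, the pathway genes past 1.5-fold and the pair of highest mean in each list, of which 1 gene is not reported here. Genes named beyond this rule, chosen after their values were seen, are Gucy1a2, Gucy1b2, Nppa, Nppb, Nppc, Corin, Pde5a, Th, Hprt1, Hsp90aa1, the channel genes and the single markers. Python 3.11.15, NumPy 2.4.6, pandas 2.3.3, SciPy 1.17.1 and matplotlib 3.10.9 were used.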

Additional observations from a re-analysis of the deposited data

How the results depend on the processing

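Prkg2 and Npr2 were lower in SHR under each of the 6 scales and scalings tried for single genes. The log2 ratio of Prkg2, -2.54, lay between -2.54 and -0.78 and that of Npr2, -0.87, between -0.88 and -0.25, with the smallest size on the log2(mean + 1) scale of the deposited values, where the added 1 shrinks it by construction. The count of 2 members lower by at least 1.5-fold became 1 on that scale, 1 with a fold of 2, and 0 with a minimum of 1 per 10000, which neither gene reaches. It was 2 under the other alternatives, and no member was higher under any of them. Without a minimum, only genes above 0 in both libraries were compared, so Nos1 and Npr1 could not be called. The 7 pathway genes lower by at least 1.5-fold became 0 on the log2(mean + 1) scale, 3 on the log2(mean + 0.1) scale, 12 without a minimum, 1 where the minimum was 1 per 10000, 13 with the smallest fold tried and 3 with a fold of 2. They became 4 with the median of all genes set to 0 and 3 with that of genes of like span set to 0. The 3 pathway genes higher by at least 1.5-fold became 1 on the log2(mean + 1) scale, 7 without a minimum, 1 where the minimum was 1 per 10000, 10 with the smallest fold, 1 with a fold of 2, and 8 and 5 under the same centrings. They became 5 with at least 30 estimated counts over both libraries in place of the minimum, an alternative chosen after seeing the data that also moved the lower count from 7 to 10. Other choices of this kind, the median value of a count or values that recur in at least 5 genes, moved the estimated counts of Prkg2 in Wistar from 3119 to 3258 and 3624. Those of Npr2 in Wistar went from 1616 to 1688 and 1878. No paired analysis was possible because there is a single library for each strain, and no replicate could be left out. Below about 10 counts the means of single genes are limited by depth.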
